A study of Homo sapiens with 6 samples.

Results

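The genes described here are 152 expressed antisense RNA genes, measured in libraries of 2 human colorectal cancer cell lines. They are the genes of the RIP expression table that carry the biotype antisense_RNA and reach an FPKM of at least 1 in all 4 libraries of that table, with the 4 genes KCNQ1OT1, ZFAS1 and SNHG family members that met this minimum left out. FPKM is the number of reads on a gene scaled to its length and to the mapped reads of the library. The table lists 58302 genes, 5517 of them as antisense RNA, of which 3245 were above 0 in at least 1 library and 674 in all 4. The members were therefore chosen on the same FPKM values that are given below, so these values are a description and no test was made on them.

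Antisense RNAs are transcribed from the DNA strand opposite to another gene, called the sense gene. Many are long noncoding RNAs that start close to the start of the sense gene and are read away from it, so that both arise from 1 bidirectional promoter, while others start inside or beyond the sense gene and overlap its exons. Some are known to act on the sense gene in cis, by holding chromatin or polymerase factors at the locus or by pairing with the sense RNA, and others act elsewhere in the nucleus or cytoplasm. NAT10 is the acetyltransferase that makes N4-acetylcytidine (ac4C) in RNA. In rRNA and tRNA it works together with guide RNAs or adaptor proteins, and in mRNA ac4C has been tied to stability and translation.

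SW480 and DLD-1 are established epithelial lines derived from human colorectal tumours, both wild-type for this study and untreated, kept in DMEM with fetal bovine serum. For each line there was an Input library of total RNA, a library of RNA recovered with NAT10 by RNA immunoprecipitation (RIP) and a library of RNA recovered with an antibody to ac4C (acRIP), which makes 6 libraries with 1 per group. With 1 library per group there was no replicate check, no p-value could be given, and every comparison is between these libraries. Intervals given with a ratio are exact 95% intervals for the reads counted and cover counting error only.

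Before the members are described, the libraries have to be. Across the 16196 protein-coding genes above 0 in at least 1 library of the table, the RIP library labelled SW480 had a Pearson correlation of log2(FPKM + 1) of 0.944 with the Input labelled DLD-1 and of 0.871 with the Input labelled SW480. The RIP library labelled DLD-1 had 0.951 with the Input labelled SW480 and 0.856 with the Input labelled DLD-1. The Inputs given in the acRIP table had correlations of 0.963 (SW480) and 0.957 (DLD-1) with the Inputs of the same label in the RIP table. The RIP libraries thus resembled the Input of the other label, so ratios are given over both Inputs, and libraries are named by their labels. Of 7 epithelial markers, 6 (EPCAM, KRT8, KRT18, KRT19, CDH1 and CDX2) were at 4.31 FPKM or more in all 4 libraries and VIL1 was at 0.261 to 1.24, while PTPRC, COL1A1 and PECAM1, which mark other cell types, were at 0.381 or less. The reads counted on genes summed to between 11178713 and 11931422 in the Inputs and between 21773924 and 26245762 in RIP, so the Inputs were counted with fewer reads than the RIP libraries. These read numbers were worked out from the steps of the FPKM values and came out whole in 99.96% of genes that had a value above 0 in 2 or more libraries.

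The members were of low abundance. Under the label SW480 their median was 3.01 FPKM in RIP and 2.99 in Input, and under the label DLD-1 it was 2.81 in RIP and 3.81 in Input, while protein-coding genes at the same minimum had medians of 10.5 to 12.5. Together they held 0.165% to 0.218% of each library's FPKM sum. The median member rested on 54 reads in the Input labelled SW480 and 112 in the RIP labelled SW480, and 23 members had fewer than 20 reads in the Input labelled SW480. At the edge of the minimum, AC011476.3 (lowest value 1.01 FPKM), AC074117.1, LINC00894 and NALT1 (1.02 each) were just inside. AP001157.1 and C1RL-AS1 (0.994 each), AL109613.1 (0.982) and LINC01311 (0.962) were just outside.

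How the reads were assigned to a strand is not given in the sources used here. Reads from a member and from an exon of its sense gene at the same place can therefore not be told apart in these values, and copies that are nearly identical, such as NUTM2A-AS1 and NUTM2B-AS1, are uncertain for the same reason.

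To show what kind of locus these genes sit in, the RefSeq promoter windows (250 bases before and 50 after the start, build GRCh38.p14) were read for the 97 members that have one. Of these windows, 68.0% held the GC box GGGCGG on either strand, against 44.6% of the windows of all 27305 genes listed. The ETS core CCGGAAG was in 14.4% against 10.7%, the CCAAT box in 40.2% against 35.7%, and the TATA box TATAAA in 6.19% against 12.0%. The median window of the members had 25 CG dinucleotides and that of all genes 14. The members were chosen as expressed and the 27305 listed genes were not. Windows of other expressed genes were not read, so these differences cannot be assigned to antisense genes in particular. A match is a description of the letters and not of a bound factor. The windows of 3 members that were higher in both RIP libraries than in both Inputs, and of PRR7-AS1, which was lower, are shown 5′ to 3′ on the strand of the antisense RNA, with matches to these motifs on either strand in capitals. PRR7-AS1 had no match.
AC009005.1 (BSG-AS1), chr19:572199-572498, minus strand: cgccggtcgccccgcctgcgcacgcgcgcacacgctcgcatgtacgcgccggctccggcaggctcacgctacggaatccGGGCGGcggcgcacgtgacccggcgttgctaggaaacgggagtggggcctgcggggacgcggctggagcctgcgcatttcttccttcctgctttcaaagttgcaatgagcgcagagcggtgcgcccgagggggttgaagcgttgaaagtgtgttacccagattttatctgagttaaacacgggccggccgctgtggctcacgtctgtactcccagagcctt
AL590617.2 (NHSL1-AS1), chr6:138691418-138691717, plus strand: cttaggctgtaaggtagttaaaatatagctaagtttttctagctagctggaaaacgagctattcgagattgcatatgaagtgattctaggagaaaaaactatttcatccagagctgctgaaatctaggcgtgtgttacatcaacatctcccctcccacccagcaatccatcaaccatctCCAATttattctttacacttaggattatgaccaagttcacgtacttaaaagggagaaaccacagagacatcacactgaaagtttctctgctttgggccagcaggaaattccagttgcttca
NNT-AS1, chr5:43603181-43603480, minus strand: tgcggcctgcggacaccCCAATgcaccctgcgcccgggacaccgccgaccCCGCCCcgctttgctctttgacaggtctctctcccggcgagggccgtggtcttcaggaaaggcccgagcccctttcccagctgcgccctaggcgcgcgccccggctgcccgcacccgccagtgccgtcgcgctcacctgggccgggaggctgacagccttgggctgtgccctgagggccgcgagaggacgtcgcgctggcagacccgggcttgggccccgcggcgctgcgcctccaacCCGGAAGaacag
PRR7-AS1, chr5:177447895-177448194, minus strand: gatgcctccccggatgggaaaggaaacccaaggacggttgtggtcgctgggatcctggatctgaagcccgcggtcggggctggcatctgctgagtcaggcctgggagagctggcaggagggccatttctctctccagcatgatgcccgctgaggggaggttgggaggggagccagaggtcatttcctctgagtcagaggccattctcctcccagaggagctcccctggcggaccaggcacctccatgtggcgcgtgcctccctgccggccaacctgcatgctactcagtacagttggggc

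The windows differed in composition. That of AC009005.1 had 37 CG dinucleotides, that of NNT-AS1 34, that of PRR7-AS1 11 and that of AL590617.2 only 4. The start of AC009005.1 lies 348 bases from that of BSG, which encodes the surface glycoprotein basigin, and the 2 genes are read away from each other. NNT-AS1 starts 50 bases inside NNT, the gene for a mitochondrial transhydrogenase, and PRR7-AS1 starts 381 bases upstream of PRR7. The start of AL590617.2 is 119099 bases from the nearest listed start of NHSL1.

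For 76 members both the antisense and the sense start were listed, with the sense gene taken from the current symbol. In 39 of them the nearest starts were within 1000 bases and read away from each other, though in 12 of these the whole RefSeq spans, which include other starts, still overlapped. In 11 the starts were within 1000 bases and the first bases overlapped, and in 26 the starts were farther apart. The median distance was 324 bases. Of the 152 members, 57 have a different symbol today than in the table, and 30 are now named as divergent transcripts (-DT), such as CTBP1-AS2, now CTBP1-DT.

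The first comparison asks which antisense RNAs were more or less abundant in RNA recovered with NAT10 than in total RNA. None of the 6 libraries was recovered with a control antibody, so recovery with NAT10 and background recovery cannot be told apart. Each ratio is log2 of (RIP FPKM + 1) over (Input FPKM + 1), and a value of at least 1 in size is called 2-fold. In bulk RNA, fewer cells that express a gene and less of its RNA per cell cannot be told apart. In the libraries labelled SW480, 19 of 152 members were at least 2-fold higher in RIP, where 17.2% of all 10825 genes at the same minimum were, and 17 were at least 2-fold lower, where 9.70% of all genes were. In the libraries labelled DLD-1, 11 members were higher (17.0% of all genes) and 30 were lower (12.0% of all genes). Members were thus called higher in 12.5% and 7.24% of cases and lower in 11.2% and 19.7%. The medians were 0.06 (labels SW480) and -0.19 (labels DLD-1), where all genes had 0.17 and 0.08. Over the opposite-label Input, 8 members were higher for the RIP labelled SW480 (10.5% of all genes) and 23 lower (4.61% of all genes), and for the RIP labelled DLD-1 9 were higher (10.6% of all genes) and 15 lower (4.44% of all genes). The long intergenic RNAs at the same minimum, 140 genes, had medians of 0.19 and -0.24 over the Inputs of the same label. Protein-coding genes had 0.20 and 0.11. Of the intergenic medians, that under the labels SW480 lay near protein-coding genes and that under the labels DLD-1 near the members. Long intergenic RNAs were called higher in 15.7% and 7.86% of cases and lower in 16.4% and 28.6%, in the same order of labels. The sets were not matched for abundance.

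The 2 labels rarely gave the same call. Both ratios were at least 2-fold higher in 2 members, HOXA10-AS and AC009005.1, where 4.05% of all genes were, and at least 2-fold lower in 4, PRR7-AS1, AL590666.2, AC093732.1 and AC107959.3, where 1.56% of all genes were. The sign of the ratio was opposite between the labels in 74 members (47.2% of all genes) and the call itself was opposite in 5 (5.89% of all genes). Over the opposite-label Input the sign was opposite in 48 members (19.8% of all genes), 1 member, AL590617.2, was 2-fold higher for both RIP libraries (6.36% of all genes) and 6 were 2-fold lower for both (2.34% of all genes). What does not depend on how libraries are matched is whether both RIP libraries were above or below both Inputs. That held for 26 members above (30.3% of all genes) and 37 below (19.1% of all genes). No member was 2-fold higher in each of the 4 possible ratios (3.68% of all genes), and 3 were 2-fold lower in each, PRR7-AS1, AL590666.2 and AC093732.1 (1.34% of all genes).

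**Figure D1:**
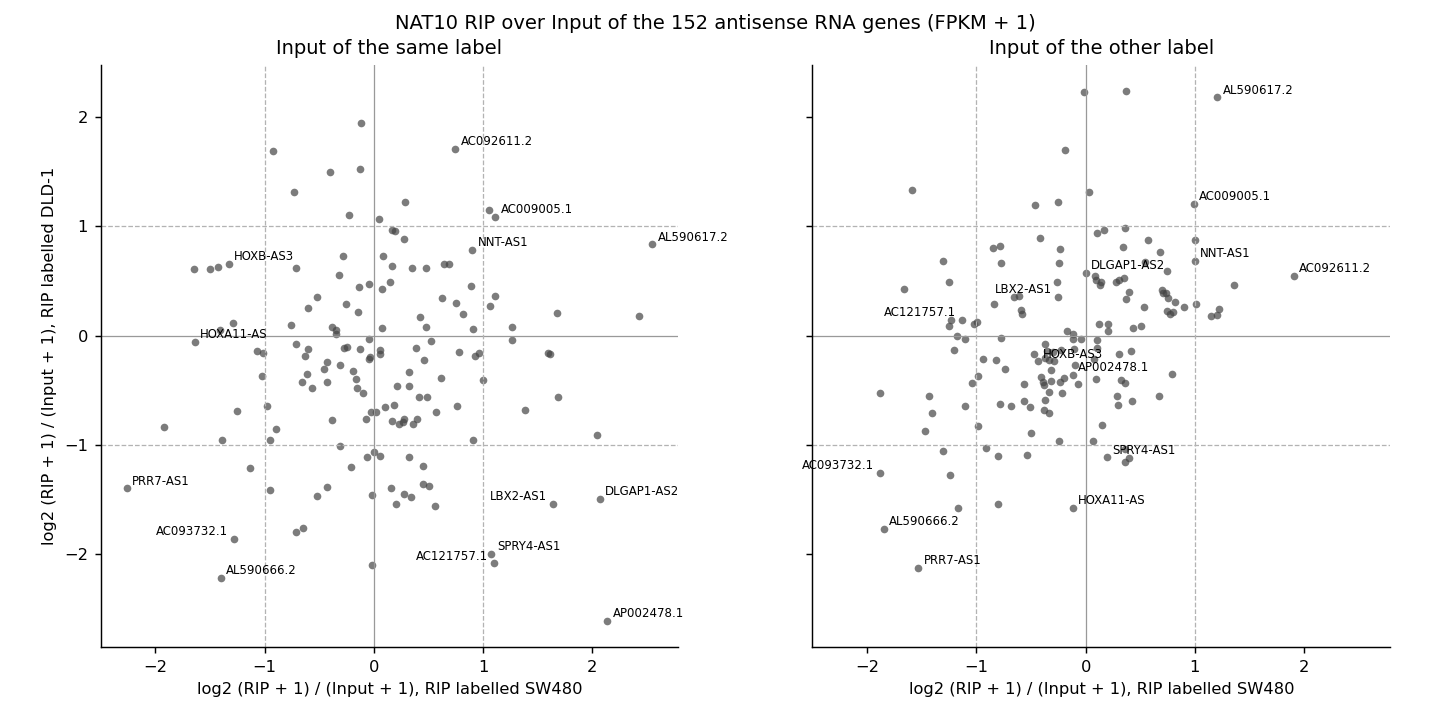
Log2 of (RIP FPKM + 1) over (Input FPKM + 1) for the 152 antisense RNA genes, with the RIP labelled SW480 on the horizontal and the RIP labelled DLD-1 on the vertical axis, over the Input of the same label (left) and of the other label (right). Dashed lines mark 2-fold, each point is a gene, and the 5 genes called in opposite directions on the left (lower right corner) have no opposite calls on the right.

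Among the members high in RIP, AL590617.2, now NHSL1-AS1, had the largest ratio under the labels SW480, while under the labels DLD-1 HOXA10-AS, AC009005.1 and others were above it. In RIP it stood at 16.2 FPKM under the label SW480 and 12.3 under DLD-1, against Inputs of 1.94 and 6.46 in the same order. Both RIP values were above both Inputs. The ratio of FPKM was 8.35 (5.62 to 12.9) for the labels SW480 and 1.91 (1.48 to 2.48) for the labels DLD-1, and the smallest of the 4 ratios on the log2 scale was 0.84. The Inputs of the acRIP table were at 5.21 and 7.20 FPKM, also below both RIP values. Over these, brought to the same protein-coding median as the RIP table's Inputs, the log2 ratios were 0.98 and 0.15.

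AC009005.1, named BSG-AS1 today, was at 8.75 (SW480) and 9.42 FPKM (DLD-1) in RIP and at 3.51 and 3.90 in the Inputs. The groups did not overlap, and the ratios were 2.49 (1.74 to 3.65) and 2.41 (1.69 to 3.52). In the acRIP table, however, the Inputs were at 9.98 and 9.62 FPKM, and over these, brought to the same protein-coding median, the log2 ratio was -0.69 and -0.59. Its direction therefore rests on which table's Input is used. The 2 tables used different gene lengths for part of the genes, so a level is compared across them with that limit, and the sources used here do not give whether their Input columns come from 1 library or from separate ones.

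HOXA10-AS, which lies next to HOXA10 in the HOXA cluster of homeobox transcription factors, was at 3.78 FPKM in the RIP labelled SW480 and 9.75 in the RIP labelled DLD-1, against Inputs of 1.30 and 3.83. The RIP labelled SW480 was just under the Input labelled DLD-1, so the groups overlapped, and over that Input its log2 ratio was -0.01. Over the acRIP table's Inputs of the same label the log2 ratios were -0.98 and -0.33.

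NNT-AS1, reported in several cancers as a regulator of cell growth, was at 5.15 and 4.30 FPKM in RIP and 2.30 and 2.08 in Input, in the order SW480 and DLD-1. The groups did not overlap, and the ratios were 2.24 (1.89 to 2.68) and 2.07 (1.71 to 2.52), with 134 reads or more in each library. Over the acRIP table's Inputs of the same label its log2 ratios were 1.55 and 0.20, so the rise was small there under the label DLD-1. AC092611.2 was at 8.22 and 7.05 FPKM in RIP and at 4.50 and 1.46 in Input, with only 3 reads in the Input labelled DLD-1, so that its ratio there had an interval of 1.48 to 24.8. The other 3 of the 8 highest were ASB16-AS1 (log2 ratios 0.68 and 0.66), OTUD6B-AS1 (0.64 and 0.65) and NCK1-AS1 (0.47 and 0.62). Over the acRIP table's Inputs of the same label the log2 ratios were 0.08 and -0.19 for ASB16-AS1, -0.43 and 0.90 for NCK1-AS1 and -0.22 and 1.75 for AC092611.2, so the direction turned under 1 label in each.

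At the other end stood PRR7-AS1, which starts beside PRR7, the gene of a membrane adaptor protein. It was at 2.60 and 2.95 FPKM in RIP and at 16.2 and 9.40 in Input. All 4 ratios were more than 2-fold below 1, at 0.160 (0.116 to 0.216) for the labels SW480 and 0.314 (0.221 to 0.442) for the labels DLD-1. The acRIP table's Inputs, at 5.45 and 5.00 FPKM, were also above both RIP values.

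AL590666.2, now BCAN-AS2, was the most abundant member of all. It was at 153 FPKM in the Input labelled SW480 and 208 in the Input labelled DLD-1, and at 57.2 and 44.1 in the RIP libraries. The ratios were 0.374 (0.348 to 0.403) and 0.212 (0.195 to 0.229), and the acRIP table's Inputs stood at 120 and 188 FPKM, above both RIP values as well. It spans chr1:156645736-156661440 in RefSeq.

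AC093732.1 was at 1.14 and 1.18 FPKM in RIP and 4.21 and 6.91 in Input, on 15 to 47 reads a library. In the acRIP table it was listed at 0 for the Input labelled DLD-1, which turned its log2 ratio there to 1.13. AC107959.3, now CHILL1, was at 2.23 and 2.87 FPKM in RIP and 6.08 and 7.96 in Input. HOXA-AS2, transcribed within the HOXA cluster, was at 1.37 and 1.13 FPKM in RIP and 5.21 and 3.14 in Input, with no overlap and ratios of 0.264 (0.205 to 0.338) and 0.361 (0.262 to 0.493). AL591895.1, AL035587.1 and LINC00894 complete the 8 lowest, with log2 ratios between -1.42 and -0.85.

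**Figure D2:**
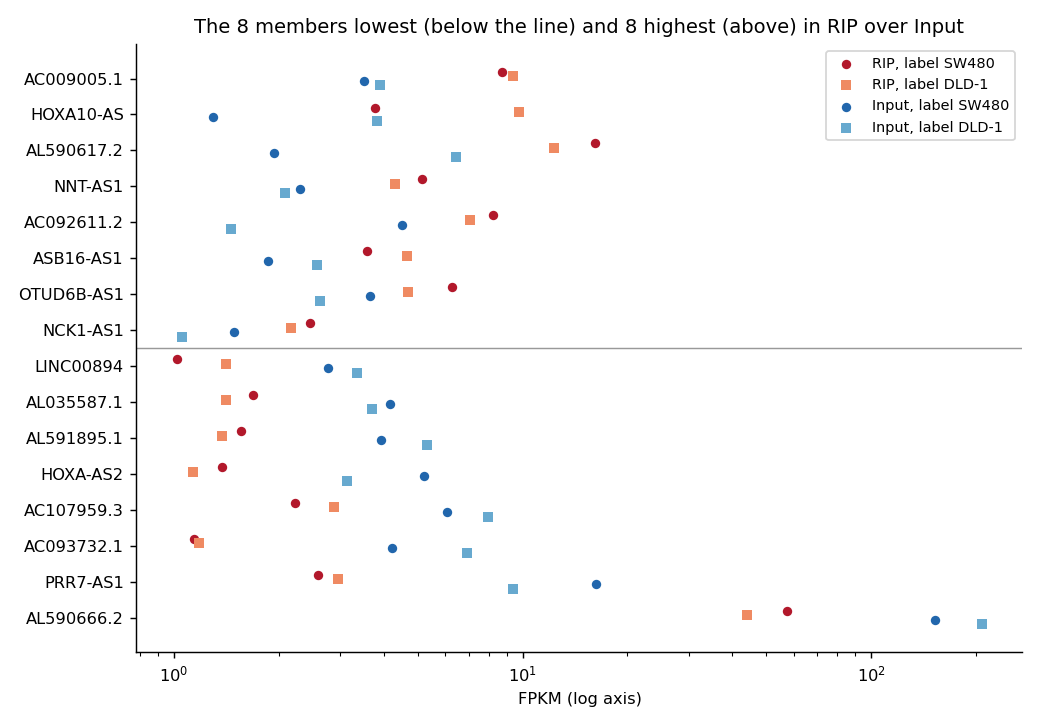
FPKM (log axis) of the 8 members with the lowest and the 8 with the highest RIP over Input ratio of the same sign under both labels, in the 2 RIP and 2 Input libraries of the RIP table. Both RIP points lie left of both Input points in all 8 rows below the line, and above it HOXA10-AS has an Input point (3.83) to the right of a RIP point (3.78).

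Of the other abundant members, AFAP1-AS1, an antisense RNA of the actin filament associated gene AFAP1 that is often raised in tumours, was at 38.9 and 37.2 FPKM in RIP and 43.6 and 49.4 in Input. Both RIP values were below both Inputs, with ratios of 0.892 (0.860 to 0.926) and 0.754 (0.726 to 0.784) on 4333 reads or more. AL365181.3 had log2 ratios of -0.07 and -0.76, AL445524.1 had -0.04 and -0.20, and the homeobox cluster RNA HOXB-AS3 had -1.33 and 0.66.

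The ratios of HOXB-AS3 and HOXA11-AS differed between the labels. HOXB-AS3 was at 12.8 FPKM in the RIP and 33.6 in the Input labelled SW480, and at 28.4 in the RIP and 17.6 in the Input labelled DLD-1. The RIP labelled SW480 and the Input labelled DLD-1 were thus the 2 low libraries, and over the opposite-label Input both log2 ratios were small (-0.44 and -0.23). HOXA11-AS, which starts 176 bases from HOXA11 and is read away from it, was at 7.42 FPKM in the Input labelled SW480 and between 1.70 and 1.93 in the other 3 libraries. HOXA-AS2 and HOXA11-AS both had their RIP values below both Inputs, and HOXB-AS3 and HOXA10-AS did not.

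Of 60 antisense RNAs listed from general knowledge as well known, 13 were members. Under the labels SW480, 1 of them was at least 2-fold higher in RIP and 3 were lower. Under the labels DLD-1, 1 was higher and 1 lower. Among all genes the shares were 17.2% higher and 9.70% lower (labels SW480), and 17.0% and 12.0% (labels DLD-1). FGD5-AS1, a noncoding RNA described as binding several microRNAs, was at 24.4 and 26.5 FPKM in RIP and 27.2 and 22.6 in Input, with overlapping groups. THAP9-AS1 was at 15.0 and 16.0 FPKM in RIP and 10.9 and 14.0 in Input, both RIP values above both Inputs by less than 2-fold. VPS9D1-AS1, also called MYU, had log2 ratios of 0.46 and -0.22, and NOP14-AS1 -1.02 and -0.37. MCM3AP-AS1 had 0.06 and -1.10, NUTM2A-AS1 -0.25 and -0.11, and CTBP1-AS2 0.78 and -0.15. ARRDC1-AS1 had -0.73 and 1.32. TUG1, a nuclear and cytoplasmic RNA that RefSeq now lists as protein-coding, was at 21.5 and 29.3 FPKM in RIP and 27.1 and 19.6 in Input.

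Zinc finger sense genes were taken by name only, from symbols that start with ZNF and a number, ZFHX, ZBED or ZFAND. Those with other names are not counted. Of the 7 members found so, 1, AC091729.3 (ZFAND2A-DT), was at least 2-fold higher in RIP under the labels SW480. No other call was made in these 7 under either label. All genes gave 17.2% higher and 9.70% lower under the labels SW480, and 17.0% and 12.0% under the labels DLD-1. ZNF710-AS1 had both RIP values (1.25 and 1.08 FPKM) below both Inputs (3.43 and 2.26), and ZNF503-AS2 had log2 ratios of -0.05 and -0.03. GATA2-AS1, antisense to the blood and endothelial transcription factor GATA2, was at 2.44 FPKM in the RIP and 8.15 in the Input labelled SW480, and at 6.09 and 5.82 in those labelled DLD-1. ID2-AS1, beside the inhibitor of DNA binding ID2, was at 3.58 and 2.17 FPKM in RIP and 1.29 and 3.19 in Input.

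The 5 members with opposite calls were AP002478.1, DLGAP1-AS2, AC121757.1, LBX2-AS1 and SPRY4-AS1. AP002478.1 was at 11.9 FPKM in the RIP and 1.93 in the Input labelled SW480, and at 1.28 in the RIP and 12.9 in the Input labelled DLD-1. The high libraries were the RIP labelled SW480 and the Input labelled DLD-1, and over the opposite-label Input its log2 ratios were -0.12 and -0.36, where over the same label they were 2.13 and -2.61. LBX2-AS1, antisense to the homeobox gene LBX2, was at 13.6 and 3.68 FPKM in the RIP and Input labelled SW480 and at 4.99 and 16.4 in those labelled DLD-1, with the same high libraries. Its sense gene went the same way, with log2 ratios of 1.33 and -1.55 beside 1.64 and -1.54 for the antisense RNA. SPRY4, which encodes an inhibitor of growth factor signalling, had 1.35 and -1.59 beside 1.08 and -2.0 for SPRY4-AS1.

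The second comparison sets the libraries labelled SW480 against those labelled DLD-1. Among the Inputs of the RIP table, 11 members were at least 2-fold higher in SW480 (6.99% of all genes) and 25 higher in DLD-1 (8.81% of all genes were lower in SW480). Of these 36, 16 were called the same way by the acRIP table's Inputs, or 10.5% of the members where 11.1% of all genes were, with 4 higher in SW480 and 12 higher in DLD-1, and 1, AL355574.1, was called the opposite way. The 4 were HOXA11-AS, AC092611.2, AL360181.2 and MCF2L-AS1. Those higher in DLD-1 included DLGAP1-AS1, DLGAP1-AS2, LBX2-AS1, LENG8-AS1, AP002478.1 and AC093673.1.

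DLGAP1-AS1 and DLGAP1-AS2 lie next to each other on chromosome 18 and both were low in the Inputs labelled SW480. DLGAP1-AS1 had Inputs of 1.08 FPKM (SW480) and 6.63 (DLD-1), with 0.691 and 5.58 in the acRIP table. DLGAP1-AS2 was at 6.26 and 29.5, with 4.56 and 12.5 in the acRIP table. In RIP the order was turned, at 7.57 (SW480) and 3.07 (DLD-1) for DLGAP1-AS1 and 29.5 and 9.82 for DLGAP1-AS2.

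Between the RIP libraries, 9 members were at least 2-fold higher in the one labelled SW480 (7.16% of all genes) and 9 in the one labelled DLD-1 (6.15% of all genes were lower in SW480). Of the 16 members called the same way in both Input tables, 12 had the opposite sign between the RIP libraries, or 75.0%. Among all genes called in both Input tables that share was 97.0%. The 4 that kept their sign were AC092611.2, AC080023.1, AF111167.1 and LENG8-AS1. The Pearson correlation across the 152 members went the same way, at 0.734 between the RIP labelled SW480 and the Input labelled DLD-1 and 0.613 with the Input of its own label, and for the RIP labelled DLD-1 at 0.713 and 0.632. These are descriptions over genes that share libraries and depth.

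**Figure D3:**
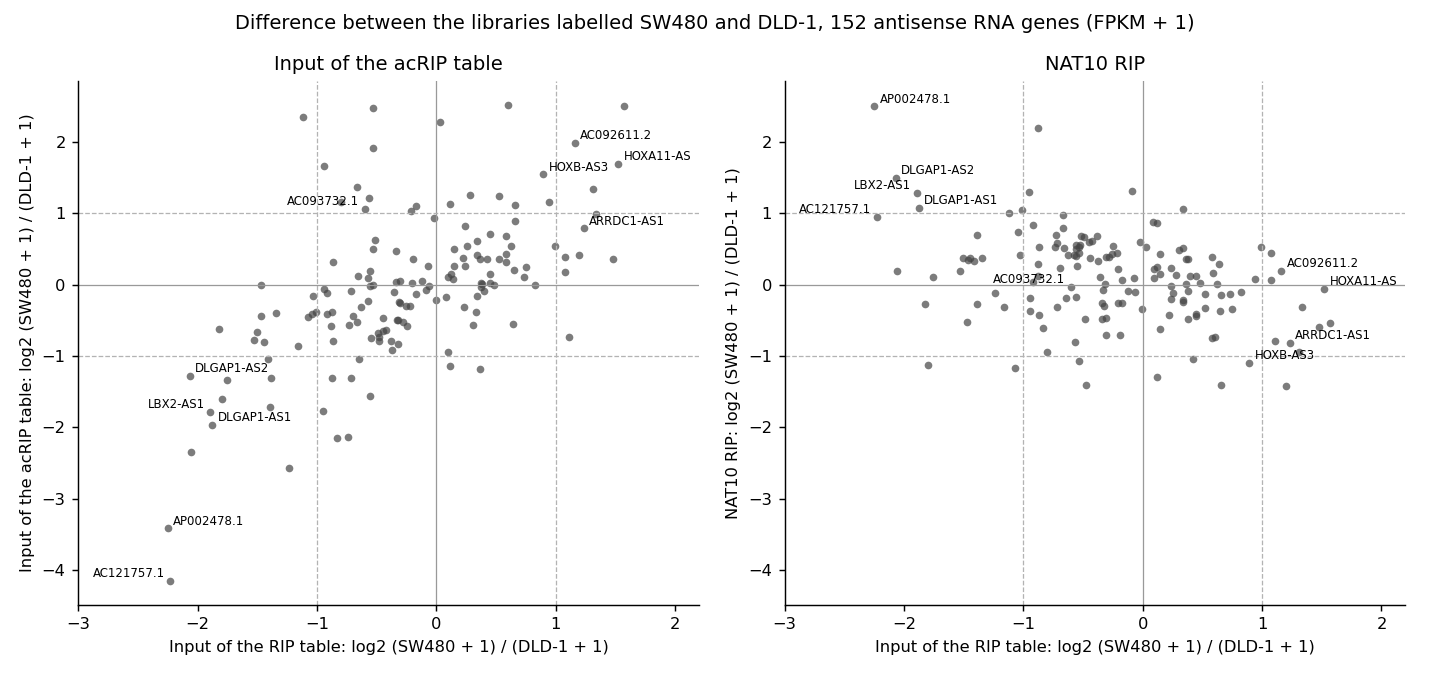
Log2 of (SW480 FPKM + 1) over (DLD-1 FPKM + 1) for the 152 antisense RNA genes, with the Inputs of the RIP table on the horizontal axis and the Inputs of the acRIP table (left) or the RIP libraries (right) on the vertical axis. DLGAP1-AS2, LBX2-AS1 and AP002478.1 lie below 0 on the left and above 0 on the right, and dashed lines mark 2-fold.

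The third comparison sets each antisense RNA beside its sense gene. Of the 55 members whose symbol ends in -AS and a number, 52 had a sense gene of exactly that name in the table, with 10 of the sense genes under 1 FPKM in at least 1 library. The sense gene was the more abundant in both Inputs in 32 pairs and the antisense RNA in 18. Under the labels SW480, 7 of the antisense RNAs and 8 of the sense genes were at least 2-fold higher in RIP and 5 and 6 were lower. Under the labels DLD-1, 3 and 13 were higher and 8 and 10 were lower. Of all genes at the minimum, 17.2% were higher and 9.70% lower (labels SW480), and 17.0% and 12.0% (labels DLD-1). The antisense minus sense difference of the log2 ratios had a median of 0.13 for the labels SW480 and -0.36 for the labels DLD-1. The antisense ratio was the higher in both labels in 12 pairs, the lower in both in 16, and the sign of the difference changed between labels in 24. Over the opposite-label Input these counts were 19, 20 and 13. Averaged over both labels, a difference does not depend on which Input goes with which RIP library, and pairs are named by this mean.

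With 1 FPKM added, LENG8-AS1 differed most upward from its sense gene. With 0.1 FPKM added, its mean difference of 2.08 was below those of NUTM2B-AS1 (3.86) and ASB16-AS1 (3.38), whose sense genes were low. LENG8, which encodes a factor of mRNA processing, was at 20.2 and 29.8 FPKM in RIP and 90.3 and 63.5 in Input, while LENG8-AS1 was at 6.59 and 8.16 in RIP and 2.98 and 9.44 in Input. The mean difference was 1.96 on the log2 scale, with the sense gene below both Inputs in RIP. The starts are 161 bases apart and the RefSeq spans do not overlap.

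WAC-AS1 starts 425 bases from WAC, a gene for a nuclear adaptor protein of chromatin, and is read away from it. It was at 6.70 and 3.44 FPKM in RIP and 1.42 and 2.84 in Input. WAC was at 44.6 and 45.0 in RIP and 46.8 and 47.3 in Input, so the 4 libraries differed little for the sense gene, and the mean difference was 1.01. Over the acRIP table's Inputs WAC had log2 ratios of 0.78 and 0.74, and the differences of WAC-AS1 from it were 0.71 and -0.68, so that the mean was 0.017.

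ASB16-AS1 and NUTM2B-AS1 were among the 6 highest with mean differences of 1.39 and 1.30, where the sense genes were at most at 1.04 and 1.55 FPKM. NRSN2-AS1 had a mean of 1.27, but its differences were -1.09 and 3.63 and NRSN2 itself was at 16.9 and 1.10 FPKM in RIP and 1.77 and 28.0 in Input. VPS9D1-AS1 had 1.04, and 0.19 over the acRIP table's Inputs.

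At the low end TMEM147-AS1 differed from TMEM147, the gene of an endoplasmic reticulum membrane protein, by a mean of -1.85. TMEM147 was at 56.9 and 47.7 FPKM in RIP and 12.5 and 18.1 in Input, while TMEM147-AS1 was at 4.34 and 6.48 in RIP and 4.83 and 7.14 in Input. The sense gene was high in both RIP libraries and the antisense RNA was not. DGUOK-AS1 differed by -1.73, with DGUOK, a mitochondrial deoxyguanosine kinase gene, at 36.3 and 36.2 FPKM in RIP and 11.8 and 14.1 in Input. PSMA3, a proteasome subunit gene, was at 82.6 and 82.8 in RIP and 40.9 and 41.6 in Input, and PSMA3-AS1 at 6.70 and 9.70 in RIP and 10.7 and 7.99 in Input. THUMPD3-AS1 (-1.08), OTUD6B-AS1 (-1.04) and NOP14-AS1 (-0.85) complete the 6 lowest mean differences, with the sense ratio above the antisense ratio in both labels in each. Over the acRIP table's Inputs the differences of NOP14-AS1 were -0.07 and 0.46.

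**Figure D4:**
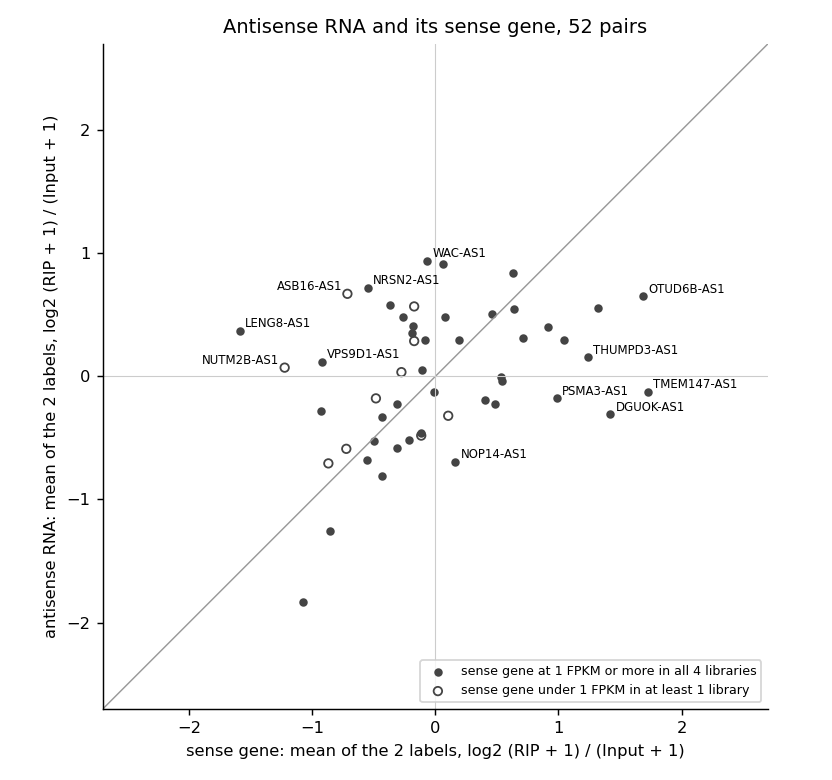
Mean of the 2 labels' log2 (RIP FPKM + 1) over (Input FPKM + 1) of the sense gene (horizontal) and of the antisense RNA (vertical) in 52 pairs, with the line of equal ratios. LENG8-AS1 lies above the line by 1.96 and TMEM147-AS1 below it by 1.85 (mean difference -1.85), and open circles are pairs with a sense gene under 1 FPKM in at least 1 library.

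Whether an antisense RNA and its sense gene differed between the lines in the same direction was read from the Inputs. In the RIP table, 30 of the 52 pairs had the same sign, and of 10 antisense RNAs at least 2-fold apart between the lines 9 had a sense gene of the same sign and 1 a sense gene also called. By the acRIP table's Inputs, 7 of 9 such pairs had the same sign. With sense genes taken from current symbols, 16 of 24 had the same sign in the RIP table and 14 of 25 in the acRIP table. Pearson's r across the 52 pairs was 0.24 in the RIP table and 0.15 in the acRIP table, with Spearman's rho at 0.27 and 0.08, over pairs that share libraries. In 36 pairs the RefSeq spans overlap, where reads of the 2 genes may not be told apart. There r was 0.54 and 0.40, and 7 of 7 antisense RNAs called in the RIP table had the sense gene's sign. In the 16 pairs with spans apart r was -0.07 and -0.20, and 2 of 3 had the same sign.

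When sense genes were taken from current symbols, which include -DT names, 103 members had a sense gene in the table. In the 37 pairs with nearest starts within 1000 bases and read apart, of which 12 have overlapping RefSeq spans, the sense gene was the more abundant in both Inputs in 30 and the antisense RNA in 5, and the antisense minus sense difference had medians of 0.35 and -0.31. In the 26 pairs with starts farther apart, the sense gene was the more abundant in 11 and the antisense RNA in 13, with medians of -0.03 and -0.22.

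The last comparison asks which members carried ac4C peaks, the regions where the acRIP library stood above Input in the deposited lists. A peak named a member in 25 of 152 cases in the SW480 list (16.4%, exact binomial 95% interval 10.9% to 23.3%), 19 in the DLD-1 list (12.5%, 7.70% to 18.8%) and 34 in the pooled list (22.4%, 16.0% to 29.8%). Long intergenic RNAs at the same minimum gave 16.4%, 14.3% and 23.6%, and protein-coding genes 52.5%, 58.6% and 65.3%. The sets were not matched for abundance. Input medians (SW480, DLD-1) were 2.99 and 3.81 FPKM for members, 3.89 and 5.59 for long intergenic RNAs and 10.5 and 10.9 for protein-coding genes. Whether abundance accounts for the shares was not tested. The members with a peak in either line, 38 in all, had median Input levels of 3.87 and 3.73 FPKM, and the other 114 had 2.91 and 3.86. All 63 member peaks of the line lists were of the exon class.

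A peak in both lines was listed for 6 members, AC008771.1, MIR762HG, TUG1, PTOV1-AS2, AL118506.1 and FGD5-AS1. They were 6 of the 25 SW480 hosts and 31.6% of the 19 DLD-1 hosts. Among long intergenic RNAs 47.8% of the SW480 and 55.0% of the DLD-1 hosts had peaks in both, and among protein-coding genes 79.3% and 71.0%. Abundance was not matched here either. MIR762HG, which hosts miR-762, had a fold enrichment of 128 in SW480 and 25.6 in DLD-1, and AC008771.1, now FAM151B-DT, had 47.9 and 26.7. TUG1 had 4 peaks in each line, the highest at 14.6 and 39.7. FGD5-AS1 had 1 peak in SW480 at 4.16 and 4 in DLD-1, the highest at 110. Of the 35 SW480 peaks, 7 overlapped a DLD-1 peak of the same gene, and of the 28 DLD-1 peaks 7 overlapped a SW480 peak.

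The 38 hosts had log2 RIP ratios from -1.64 to 1.68 under the labels SW480 and from -1.54 to 1.94 under the labels DLD-1. Their median log2 ratios were 0.05 and -0.07, against 0.06 and -0.30 for the 114 members without a peak in either line, and over the opposite-label Input 0.10 and 0.00 against -0.30 and -0.03. Of the 26 members with both RIP values above both Inputs, 7 had a peak in either line, or 26.9% where 25.0% of all members did. They were AC005034.3, ASB16-AS1 and THAP9-AS1 in the SW480 list, AC074117.1, PXN-AS1 and SVIL-AS1 in the DLD-1 list, and PTOV1-AS2 in both. Over the acRIP table's Inputs of the same label, brought to the same protein-coding median, several log2 ratios turned. They were -4.05 and -3.76 for PXN-AS1, -3.32 and -2.79 for PTOV1-AS2, -0.995 and -0.67 for AC074117.1 and 0.08 and -0.19 for ASB16-AS1. Those of THAP9-AS1 (0.97 and 0.49) and SVIL-AS1 (0.40 and 0.94) stayed above 0. The peak of AC074117.1, at a fold of 7.08, did not reach an FDR below 0.05. Of the 37 members with both RIP values below both Inputs, 6 had a peak in either line, or 16.2%. PRR7-AS1 and AL590666.2, which are among these 37, had none in either list.

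**Figure D5:**
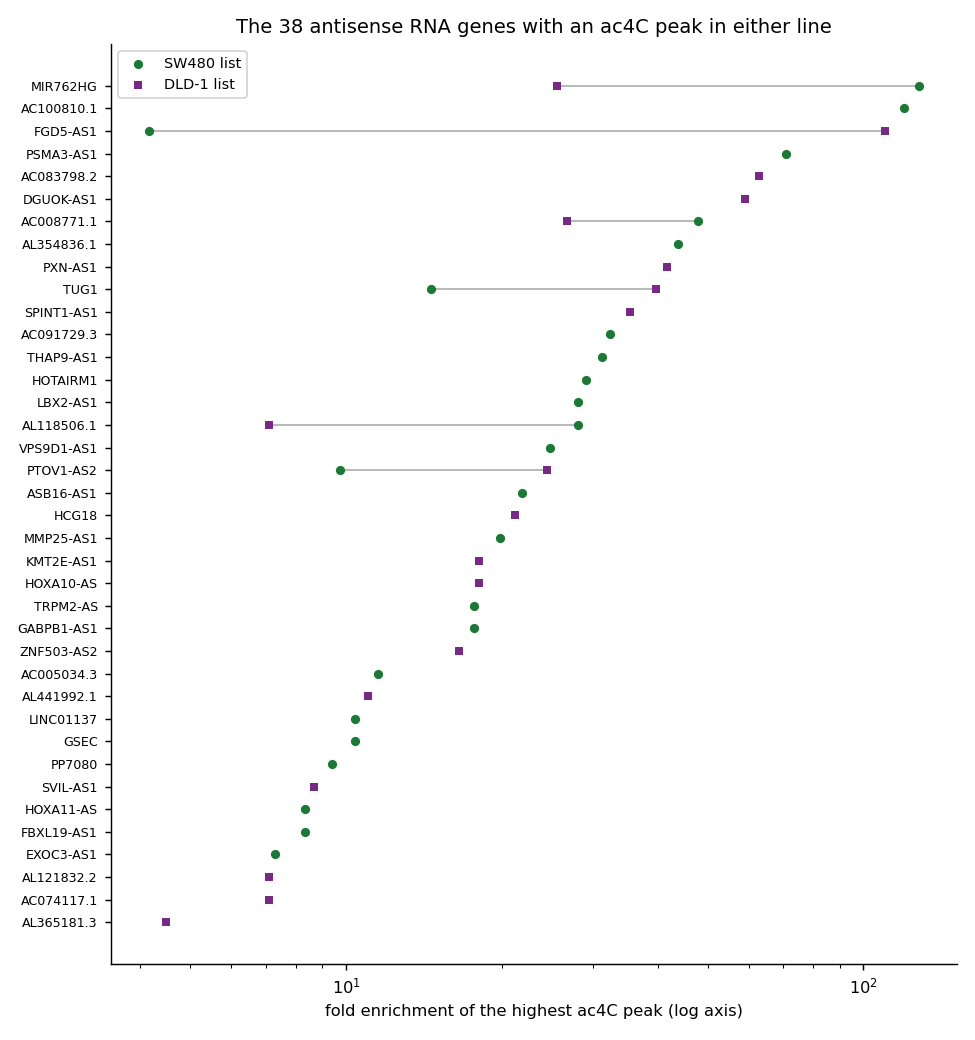
Fold enrichment (log axis) of the highest ac4C peak of each of the 38 members with a peak in the SW480 list (circles) or the DLD-1 list (squares), with a line where a member has both. The 6 members with both marks are MIR762HG, FGD5-AS1, AC008771.1, TUG1, AL118506.1 and PTOV1-AS2.

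A peak on an antisense RNA can lie where the sense gene is also transcribed. In the SW480 list 3 of the 35 member peaks overlapped a peak named for a gene on the other strand, and in the DLD-1 list 5 of 28 did. Overlap was counted from the first to the last base of each peak, so it can lie in the gap between the blocks of a peak that spans an intron. The SW480 peak of MIR762HG, which has 2 such blocks, overlapped a peak of BCL7C in this sense. The DLD-1 peak of DGUOK-AS1, at a fold of 59.0, overlapped a peak of DGUOK, that of PXN-AS1 (41.7) a peak of PXN, which encodes the focal adhesion protein paxillin, and that of HOXA10-AS (18.1) a peak of HOXA10. The peaks of DGUOK-AS1 and PXN-AS1 also have 2 blocks, so their overlaps can lie in the gap, and that of HOXA10-AS has 1 block.

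The deposited lists also name sites of the ac4C motif in each peak, a C followed by any 2 bases, 4 times in a row. Such a site was in 19 of the 35 SW480 and 17 of the 28 DLD-1 member peaks, or 54.3% and 60.7%, and in 55.1% and 54.2% of the peaks of protein-coding genes. The RefSeq windows hold 5 of these sites on members and 4 read as the motif. The KMT2E-AS1 peak of the DLD-1 list (fold 18.1) is shown because 2 adjoining sites fall at the 5′ end of the peak. They lie just upstream of the listed start of KMT2E-AS1. That start is 64 bases from the start of KMT2E, the gene of a chromatin regulator. The promoter window of KMT2E-AS1 is printed 5′ to 3′ on the minus strand, and the C that open each triplet of the 2 sites are in capitals. The 2 sites of AL118506.1 in the SW480 list, in the window of ABHD16B on the other strand, follow on the minus strand.
KMT2E-AS1, chr7:105014092-105014391: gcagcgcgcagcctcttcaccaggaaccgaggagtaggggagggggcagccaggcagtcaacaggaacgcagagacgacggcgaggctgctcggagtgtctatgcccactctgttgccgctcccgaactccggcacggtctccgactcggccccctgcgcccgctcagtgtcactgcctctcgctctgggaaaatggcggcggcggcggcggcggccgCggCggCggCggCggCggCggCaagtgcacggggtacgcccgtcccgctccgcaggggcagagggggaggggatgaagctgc
AL118506.1, chr20:63861331-63861342: CgtCccCcgCct
AL118506.1, chr20:63861310-63861321: CccCacCagCta

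KMT2E-AS1 itself was at 2.80 and 3.72 FPKM in RIP and 1.02 and 3.52 in Input, with log2 ratios of 0.91 and 0.06. AL118506.1 was at 6.20 and 3.70 FPKM in RIP and 5.13 and 7.24 in Input, with log2 ratios of 0.23 and -0.81. In both, the Input labelled DLD-1 was above the Input labelled SW480.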

How the data were processed

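Per the labels, total RNA (Input), NAT10 RIP RNA and ac4C RNA of 2 cell lines were sequenced, 1 library each. The submitters' processing notes name cutadapt 2.5, HISAT2 2.1.0 and GRCh38/hg38 among the builds. The gene counting tool, its strand setting and the peak caller are not given in the sources used here. The authors deposited FPKM per gene in a RIP and an acRIP table, and 3 peak lists with a p-value, a fold and scores (log10 p and FDR) per peak. The deposited tables also hold the authors' ratio and mean columns of RIP over Input, which were not used.

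Members and lists were chosen with earlier results of these data known. Log2 ratios used FPKM + 1, and 2-fold was the call. Whole reads were worked out from FPKM steps (tolerance 0.001), a step tested on simulated data, and gave exact conditional 95% intervals. Genes named are the 8 highest and 8 lowest by the smaller log2 ratio with the same sign under both labels, the 5 most abundant, known antisense RNAs, the 6 highest and 6 lowest pairs, the 6 with the largest difference between labels, 4 genes either side of the minimum, and members with peaks in both lines. Others named were chosen after their values were seen. The name table matched 150 members and RefSeq (GRCh38.p14) 121. Promoter motifs were counted in the first listed window of each gene. Reads were not worked out for the acRIP table, so its depth is unknown here. The values of a known antisense RNA are not reported here. Small RNAs were placed by span: DLEU2 holds MIR15A and MIR16-1, and MIR762HG holds MIR762. Python 3.11.15, pandas 2.3.3 and SciPy 1.17.1 were used.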

Additional observations from a re-analysis of the deposited data

Results flagged for a closer look

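The following 5 members were called at least 2-fold in opposite directions under the 2 labels. The difference was not tested, since there was 1 library per group. AP002478.1 had a log2 RIP over Input ratio that was higher by 4.74 under the labels SW480 than under the labels DLD-1, DLGAP1-AS2 by 3.56, AC121757.1 by 3.18, LBX2-AS1 by 3.18 and SPRY4-AS1 by 3.07. Over the opposite-label Inputs the log2 ratios, first of the SW480 and then of the DLD-1 RIP, were -0.12 and -0.36 for AP002478.1, -0.00 and 0.57 for DLGAP1-AS2, -1.13 and 0.15 for AC121757.1, -0.26 and 0.36 for LBX2-AS1, and 0.20 and -1.12 for SPRY4-AS1.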

How the results depend on the processing

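No paired analysis was possible because the labels carry no replicate numbers and each group had 1 library, and for the same reason no library could be left out in turn. The alternatives on exon overlap were not run, since no exon annotation was used here. In the order of members higher and lower in RIP (labels SW480), higher and lower (labels DLD-1), higher in both and lower in both, the counts were 19, 17, 11, 30, 2 and 4, with 74 of opposite sign. Only values that moved by over 1.5 times (counts), or left the 95% interval of the median, follow, and other counts and medians stayed within these limits. At 0.5 FPKM the counts were 42, 28, 22, 65, 7 and 10, with 125 of opposite sign, and at 3 FPKM 5, 6, 1, 6, 1 and 1, with 16. At a fold of 1.5 they were 35, 33, 28, 53, 7 and 13, and at a fold of 3 they were 10, 4, 3, 8, 0 and 0.

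Over the opposite-label Input, 8 were higher for SW480, 15 lower for DLD-1, 1 higher in both and 48 of opposite sign, the medians were -0.21 and -0.031, and 19 pairs (12 before) had the higher antisense ratio under both labels. Over the acRIP table's Inputs of the same label, 35 and 49 were lower, 19 higher for DLD-1 and 22 lower in both, the median was -0.27 for SW480, 7 pairs had the higher antisense ratio in both, and 22 members were higher in Input SW480 (11 before). Over those of the other label, an alternative chosen after seeing the data, 36 were lower for SW480, 18 higher for DLD-1, 20 lower in both and 48 of opposite sign, with a median of -0.39 for SW480. Centring on protein-coding genes, which shifts all ratios by 0.20 and 0.11, gave 0 higher and 7 lower in both and a median of -0.15 for SW480. With no pseudocount 18 were higher for DLD-1 and 9 lower in both, and with 0.1 FPKM 17 and 8, with 39 members higher in Input DLD-1 (25 before) and 14 higher in RIP SW480 (9 before). With 20 reads or more in each library (112 members), 4 were higher for DLD-1 and 47 of opposite sign.

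Chosen after seeing the data, the 89 members with no overlap of RefSeq spans or no placed sense gene gave 10, 10 and 6 (higher and lower for SW480, higher for DLD-1), 0 and 2 in both and 48 of opposite sign, as fewer genes entered. Pairs with spans apart gave 5 with the higher antisense ratio in both and a median difference of 0.23 for DLD-1 (-0.36 before), and pairs by current name gave 25 of 103. Over the opposite-label Input the log2 ratio changed sign in 55 (SW480) and 45 (DLD-1) of the 152 members, among them 6 of 36 and 7 of 41 that were 2-fold, and over the acRIP table's Inputs in 49 and 42, among them 4 and 9. Of genes named by rule and 2-fold under the label, those that changed sign over the opposite-label Input were AC121757.1 (-1.13 and 0.15), DLGAP1-AS2 (-0.00018 and 0.57), LBX2-AS1 (-0.26 and 0.36), AP002478.1 (-0.12 for SW480) and HOXA10-AS (-0.015 for SW480). Over the acRIP table's Inputs they were AC009005.1 (-0.69 and -0.59), HOXA10-AS (-0.98 and -0.33), AC074117.1 (-0.995 for SW480), AC093732.1 (1.13 for DLD-1) and PTOV1-AS2 (-2.79 for DLD-1). The cause was not tested. Peak hosts at an FDR below 0.05 stayed within 1.5 times of the counts given.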
